A study of Rattus norvegicus with 9 samples.

Results

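The CXC chemokines examined here were 5 genes, Cxcl1 (ENSRNOG00000002802), Cxcl2 (ENSRNOG00000002792), Cxcl10 (ENSRNOG00000022256), Cxcl11 (ENSRNOG00000022298) and Cxcl12 (ENSRNOG00000013589), of the 30560 genes in the deposited table. They were chosen by identifier as members of 1 gene family, and all 5 were present. The family has further members, which were not examined, so the 5 do not give its full make-up. RNA was sequenced from HBZY-1, a rat line of mesangial cells, the support cells of the glomerulus, as 3 libraries from cells treated with a high-dose aqueous extract of lyophilized powder of the leech Poecilobdella manillensis (extract cells), 3 libraries from an LPS-induced model (LPS cells) and 3 control libraries. LPS, lipopolysaccharide, is a bacterial outer membrane component that provokes inflammatory responses. The labels do not say whether the extract cells also received LPS, what the control cells were given, or any dose or time, and all 9 libraries come from 1 cell line.

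CXC chemokines are small secreted proteins that direct the movement of leukocytes and are named for the spacing of their first cysteines. Cxcl1 and Cxcl2 act on the receptor Cxcr2 and draw neutrophils to sites of inflammation. Cxcl10 and Cxcl11 are interferon-inducible ligands of Cxcr3, a receptor of activated T cells, and Cxcl12 is a constitutive ligand of Cxcr4 that holds and guides progenitor cells and lymphocytes. Mesangial cells, which support the capillary loops of the kidney's filter, are a known source of such chemokines in the inflamed glomerulus.

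The 5 genes did not share a pattern. Cxcl1 and Cxcl2, the neutrophil chemokines, were 36.4-fold and 29.5-fold higher in LPS than in control cells as ratios of the mean TPM, and extract cells had less of both than LPS cells. Cxcl10 was lowest in extract cells, intermediate in LPS cells and highest in control cells, while Cxcl12 ran the other way and was highest in extract cells. Cxcl11, the least abundant of the 5 in extract and LPS cells, was lower in extract cells than in both other groups. Levels are given in TPM, a gene's length-corrected share of all transcripts scaled to 1000000 per library, so levels of different genes can be set side by side. In these bulk libraries a smaller number of cells expressing a gene and less RNA per cell cannot be told apart.

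**Figure D1:**
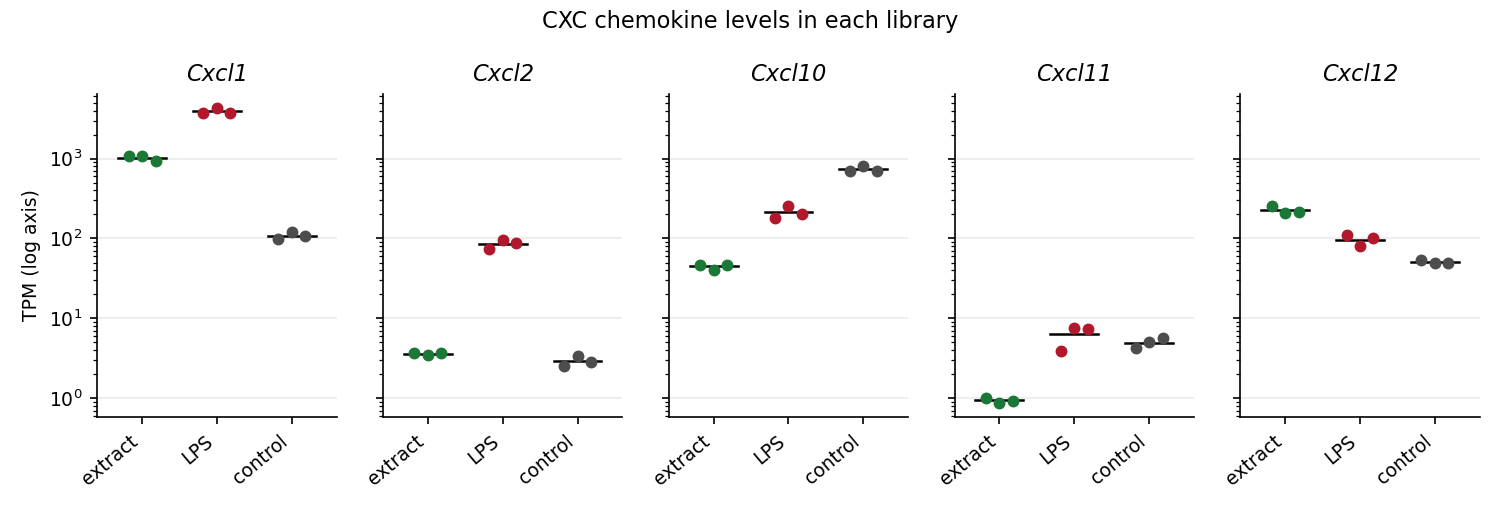
TPM of the 5 CXC chemokine genes on a log axis, 1 point per library with the mean of the 3 libraries as a line, for extract, LPS and control cells. Cxcl1 spans 98.0 to 4276 TPM, Cxcl10 is lowest in the 3 extract and highest in the 3 control libraries, and Cxcl12 is highest in the 3 extract libraries.

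Differences were tested with limma on log2(TPM + 1), a scale on which weakly expressed genes appear less changed than they are, over the 12192 genes whose mean reached 1 TPM. All 5 chemokines passed that filter, and a gene is called changed at a Benjamini-Hochberg adjusted p below 0.05 over all genes tested. Each p-value rests on how far the 3 libraries within a group differ, pooled over the 3 groups and moderated by limma. Moderation draws each gene's spread towards that of tested genes with a similar mean level. The series calls the libraries biological replicates and does not say how they were cultured, so the spread between them may be technical in part.

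In LPS versus control, the comparison that describes the inflammatory model, 4 of the 5 genes were called changed, where 40.7% of all genes tested were. Cxcl1, Cxcl2 and Cxcl12 rose, against 9.79% of all genes called higher, and Cxcl10 fell, against 30.9% called lower. In extract versus LPS, which asks how cells given the extract differ from the model, all 5 genes were called changed, against 59.4% of all genes. Cxcl1, Cxcl2, Cxcl10 and Cxcl11 fell, against 25% of all genes called lower, and Cxcl12 rose, against 34.4% called higher. In extract versus control 4 of the 5 were called, against 51.7% of all genes: Cxcl1 and Cxcl12 were higher, against a background of 22.3%, and Cxcl10 and Cxcl11 were lower, against 29.4%. Calls were common among all genes, so the sizes are given gene by gene. The 3 comparisons share libraries in pairs and are not independent.

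**Figure D2:**
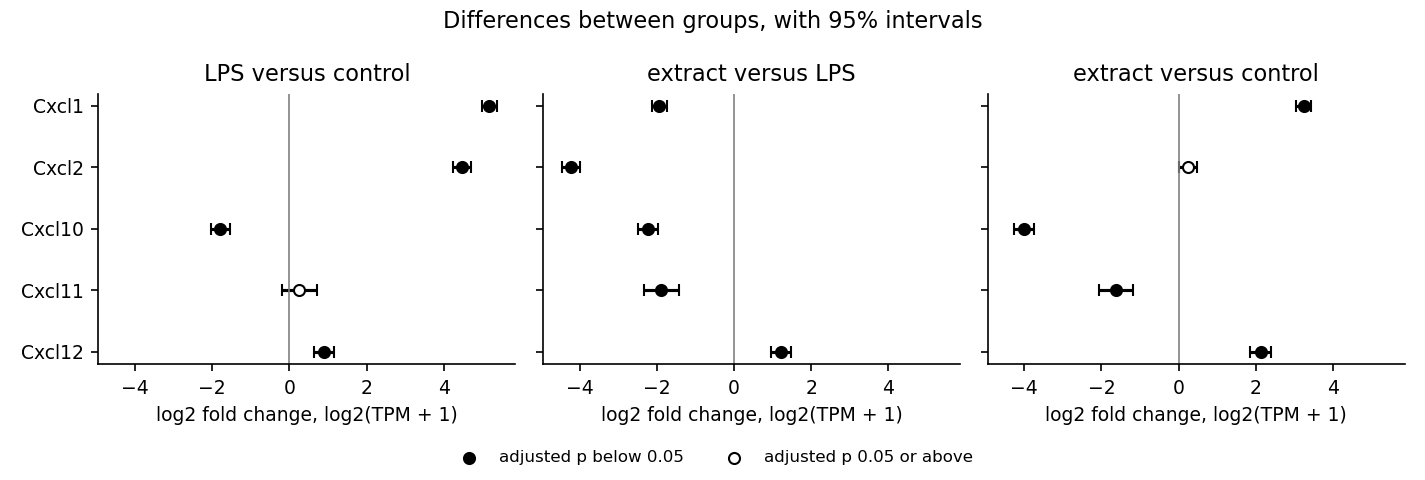
Log2 fold changes of the 5 genes on the log2(TPM + 1) scale with 95% intervals from limma, in LPS versus control, extract versus LPS and extract versus control. Filled points passed an adjusted p of 0.05; the open points are Cxcl11 in LPS versus control (0.26) and Cxcl2 in extract versus control (0.25).

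Cxcl1, the rat neutrophil attractant also known as CINC-1 or Gro1, was the most abundant of the 5 in extract and LPS cells. It stood at 1091, 1069 and 930.9 TPM in the extract libraries, at 3747, 4276 and 3763 TPM in the LPS libraries and at 98.0, 119.9 and 106.2 TPM in the control libraries. The 3 groups did not overlap: every LPS library was above every extract library, and every extract library above every control library. In the LPS libraries it took places 17 to 20 among all 30560 genes ranked by TPM, against places 141 to 161 in extract and 1239 to 1538 in control libraries. Its log2 fold change in LPS versus control was 5.17 ± 0.086 (SE; limma adjusted p = 3.86e-10), and only 6 of the 12192 genes tested had a higher one. In extract versus LPS it was -1.93 ± 0.086 (limma adjusted p = 1.47e-07), which corresponds to a 3.81-fold lower mean TPM in extract cells. Cxcl1 in extract cells was still 9.54-fold above control, by 3.24 ± 0.086 on the log2 scale (limma adjusted p = 9.08e-09), a value that 11 genes exceeded.

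Cxcl2, the neutrophil chemokine also called MIP-2, was also raised in LPS cells, against a far lower control level. The extract libraries held 3.71, 3.45 and 3.69 TPM, the LPS libraries 73.4, 96.0 and 87.2 TPM, and the control libraries 2.51, 3.35 and 2.83 TPM. The LPS libraries stood far above the other 6, and the lowest extract library lay just above the highest control library. In LPS versus control it rose by 4.47 ± 0.10 on the log2 scale (limma adjusted p = 5.07e-09), with 8 genes higher. In extract versus LPS it was -4.22 ± 0.10 (limma adjusted p = 8.73e-09), a 23.6-fold lower mean TPM in extract cells, and only 2 genes of all those tested had a lower value. With extract and control levels this low the size depended on the pseudocount: the LPS-control value was 4.84 with 0.1 and 3.51 with 5 in place of 1, and the extract-LPS value was -4.52 and -3.39, all with an adjusted p below 0.05. Extract and control cells differed by 0.25 (95% interval 0.016 to 0.48), which did not pass the threshold (limma adjusted p = 0.0701). That small difference changed its call with the settings: it passed without LPS replicate 1 (0.25, limma adjusted p = 0.0384), without control replicate 2 (0.33, limma adjusted p = 0.0314), with a pseudocount of 0.1 (0.32, limma adjusted p = 0.0425) and with quantile normalization (0.34, limma adjusted p = 0.0243).

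The pair of neutrophil chemokines therefore parted in the extract cells. The ratio of Cxcl1 to Cxcl2 TPM within a library was 294.1, 309.8 and 252.3 in extract cells, 51.1, 44.6 and 43.1 in LPS cells and 39.1, 35.8 and 37.5 in control cells. Extract libraries lay above all others, and LPS libraries lay above control libraries by a smaller margin. Cxcl1 and Cxcl2 are related in sequence, and how the authors' counting divided reads that could match both is not given in the sources used here.

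Cxcl1 and Cxcl2 are direct neighbours on chromosome 14 of the RefSeq assembly GRCr8, with 0 annotated genes between them. NF-kB, the transcription factor activated by LPS through Toll-like receptors, is a known regulator of both. Their promoter windows from RefSeq, 250 bases before to 50 after the annotated gene start, are shown because these 2 genes were raised most by LPS (chr14:17479272-17479571, minus strand, and chr14:17467206-17467505, minus strand). They are printed 5′ to 3′ on the gene's strand, and capitals mark matches on either strand to GGG and TTCC with 3 bases of any kind between them, a form of the NF-kB motif that was chosen after the windows had been read.
Cxcl1: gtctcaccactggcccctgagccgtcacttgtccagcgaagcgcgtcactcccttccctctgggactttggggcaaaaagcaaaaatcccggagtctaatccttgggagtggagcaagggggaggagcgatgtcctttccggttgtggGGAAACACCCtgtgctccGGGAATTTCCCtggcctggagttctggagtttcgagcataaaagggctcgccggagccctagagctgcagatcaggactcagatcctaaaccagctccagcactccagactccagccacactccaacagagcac
Cxcl2: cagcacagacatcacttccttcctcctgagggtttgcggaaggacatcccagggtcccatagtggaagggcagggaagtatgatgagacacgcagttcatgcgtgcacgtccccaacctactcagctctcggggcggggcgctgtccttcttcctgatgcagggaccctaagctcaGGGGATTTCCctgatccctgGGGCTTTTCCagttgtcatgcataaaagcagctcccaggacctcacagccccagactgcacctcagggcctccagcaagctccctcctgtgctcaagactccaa

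In both windows the capitals lay shortly upstream of the start. The Cxcl1 stretch nearest the start, from 84 bases upstream, matched on both strands in overlapping positions, and a separate match began 102 bases upstream. The Cxcl2 matches began 74 and 54 bases upstream. Of 33469 RefSeq promoter windows of the same length, 5.4% held this form and 47.3% held the looser GGG and CC with 5 bases between them. A match describes letters and does not show that a factor binds there.

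Cxcl10, the interferon-inducible T-cell attractant also called IP-10, had the opposite order to Cxcl1 between LPS and control cells. It stood at 46.8, 40.5 and 46.5 TPM in the extract libraries, at 182.2, 253.9 and 205.3 TPM in the LPS libraries and at 693.1, 805.0 and 704.7 TPM in the control libraries. The 3 groups did not overlap, with extract lowest and control highest. Cxcl10 fell by 1.79 on the log2 scale in LPS versus control (SE 0.11; limma adjusted p = 3.02e-06). Between extract and LPS cells it fell by 2.23 (SE 0.11; limma adjusted p = 3.23e-07). The mean TPM in extract cells was 16.5-fold lower than in control cells, on the log2 scale -4.01 ± 0.11 (limma adjusted p = 1.16e-08), and 4 of the 12192 genes had a lower one. Ranked by TPM among all genes, Cxcl10 took places 3158 to 3594 in extract cells, 521 to 743 in LPS cells and 176 to 202 in control cells.

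Cxcl11, also known as I-TAC and like Cxcl10 a ligand of Cxcr3, had the lowest mean of the 5 over the 9 libraries. Its level was 1.01, 0.88 and 0.92 TPM in extract libraries, 3.93, 7.66 and 7.44 TPM in LPS libraries and 4.28, 5.02 and 5.60 TPM in control libraries. The extract libraries lay below the other 6, while the LPS and control libraries overlapped, with LPS replicate 1 the lowest of both groups. On the log2 scale Cxcl11 changed by -1.88 ± 0.20 between extract and LPS cells (limma adjusted p = 3.00e-05) and by -1.62 ± 0.20 between extract and control cells (limma adjusted p = 0.000114). LPS versus control gave 0.26 (95% interval -0.18 to 0.71; limma adjusted p = 0.330), and without LPS replicate 1 the difference passed the threshold at 0.52 (limma adjusted p = 0.00667). At such low TPM the size depended on the pseudocount: the extract-LPS value was -2.58 with 0.1 and -0.92 with 5 in place of 1, and the extract-control value was -2.28 and -0.75, all with an adjusted p below 0.05.

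Cxcl10 and Cxcl11 thus stood in different ratios in the groups, although both bind Cxcr3. Cxcl10 exceeded Cxcl11 within a library by 46.3, 46.0 and 50.6 times in extract cells, by 46.4, 33.1 and 27.6 times in LPS cells and by 161.9, 160.4 and 125.8 times in control cells. The control libraries lay above the other 6, and the extract and LPS libraries overlapped.

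Cxcl11 and Cxcl10 are neighbours with 0 annotated genes between them in GRCr8. On the same chromosome 32 annotated genes separate Cxcl10 from Cxcl2, among them Cxcl9, a further CXC chemokine not examined here. Their windows are shown because they also hold the NF-kB form while their values did not rise past the threshold with LPS (chr14:15988816-15989115, plus strand, and chr14:15973478-15973777, plus strand). Capitals mark that motif and, in Cxcl10, a match to GAAA and GAAA with 2 bases between them, the core of the interferon-stimulated response element, which was searched on both strands and is held by 3.9% of the 33469 windows.
Cxcl10: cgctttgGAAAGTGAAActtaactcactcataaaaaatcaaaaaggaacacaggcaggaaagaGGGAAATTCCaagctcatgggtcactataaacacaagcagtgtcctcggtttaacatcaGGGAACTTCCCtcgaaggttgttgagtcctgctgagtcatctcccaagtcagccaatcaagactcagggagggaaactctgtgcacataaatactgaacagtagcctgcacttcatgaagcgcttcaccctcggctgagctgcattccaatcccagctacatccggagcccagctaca
Cxcl11: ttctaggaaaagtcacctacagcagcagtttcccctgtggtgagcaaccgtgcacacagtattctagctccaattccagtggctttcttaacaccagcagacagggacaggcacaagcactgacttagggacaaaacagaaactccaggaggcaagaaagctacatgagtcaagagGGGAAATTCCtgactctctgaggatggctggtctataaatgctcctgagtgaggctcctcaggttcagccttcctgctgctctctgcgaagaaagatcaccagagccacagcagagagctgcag

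The interferon-type match of Cxcl10 began 243 bases upstream, and its matches to the NF-kB form began 187 and 128 bases upstream, the nearer one on both strands. The only Cxcl11 match began 74 bases upstream. No match to either motif, or to the looser NF-kB form, was found in the Cxcl12 window. In LPS versus control the 4 genes whose window held the NF-kB form were thus 2 that rose, 1 that fell and 1 without a call, and Cxcl12, whose window held none, rose. The form was chosen after the windows had been read, so this is a description, and a part of NF-kB in these values was not tested.

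Cxcl12, also known as SDF-1, was the only one of the 5 with more TPM in extract cells than in LPS cells. The extract libraries held 258.6, 206.7 and 212.6 TPM, the LPS libraries 109.1, 80.2 and 101.1 TPM, and the control libraries 54.4, 49.4 and 48.8 TPM. The groups did not overlap, with extract highest and control lowest. On the log2 scale LPS cells exceeded control cells by 0.91 ± 0.12 (limma adjusted p = 0.000251), extract cells exceeded LPS cells by 1.22 ± 0.12 (limma adjusted p = 1.60e-05), and extract cells exceeded control cells by 2.12 ± 0.12 (limma adjusted p = 7.39e-07). In mean TPM these were 1.90-fold, 2.33-fold and 4.44-fold, and 33 genes of all tested had a higher log2 fold change in extract versus control.

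**Figure D3:**
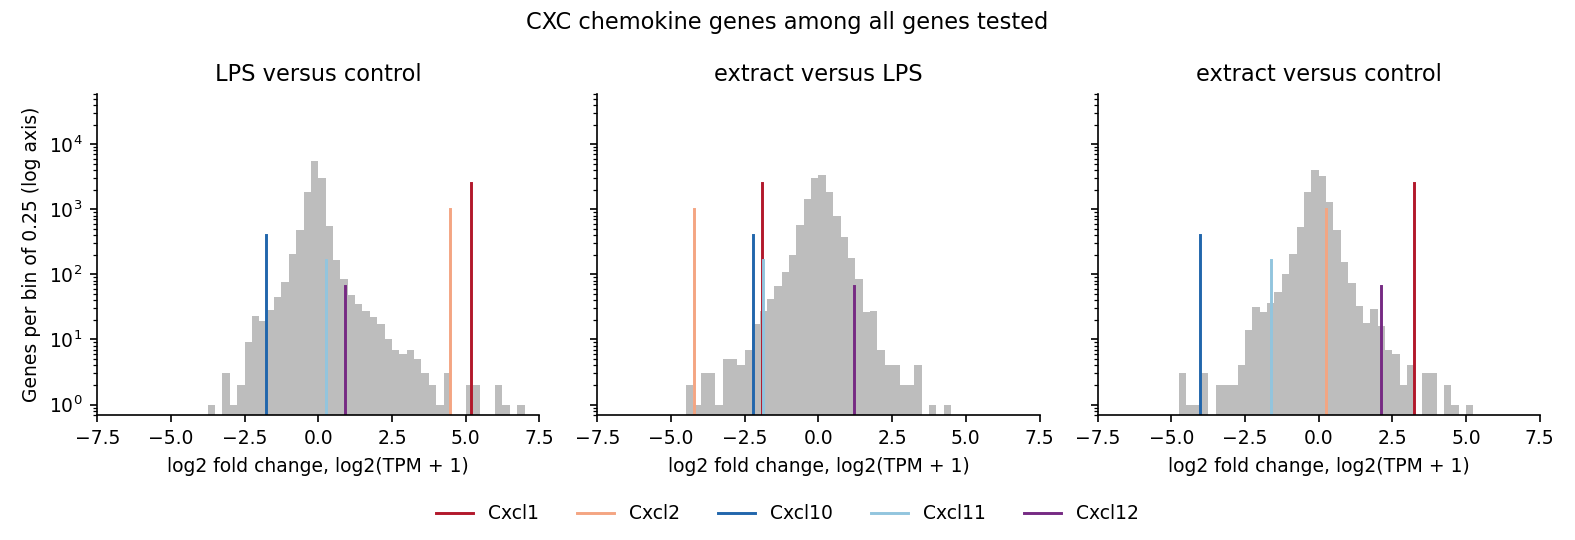
Number of genes per bin of log2 fold change (grey bars, log axis) for the 12192 genes tested in each comparison, with the 5 chemokines as coloured lines of different height for legibility. Cxcl1 (5.17) and Cxcl2 (4.47) lie at the right end in LPS versus control, Cxcl2 (-4.22) at the left end in extract versus LPS, and Cxcl10 (-4.01) at the left end in extract versus control.

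Cxcl12 was also the only member with more than 1 measured transcript. The TPM of ENSRNOT00000066670 and ENSRNOT00000098665, neighbouring rows of the transcript table, added up to that of the gene in every library, and each other member was accounted for by 1 transcript. The share of ENSRNOT00000066670 in the gene's TPM was 54.4%, 54.4% and 53.3% in extract libraries, 47.1%, 47.4% and 46.0% in LPS libraries and 41.9%, 39.9% and 44.1% in control libraries. The shares did not overlap between any 2 groups, and extract cells exceeded control cells by 12.0 points. How often the transcript shares of other genes separate these groups was not counted. An exact two-sided permutation test gave p = 0.1 for each pair of groups, the smallest value that 3 libraries against 3 allow.

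Both Cxcl12 transcripts rose in all 3 comparisons. ENSRNOT00000066670 averaged 122.2 ± 16.1 TPM in extract, 45.3 ± 6.8 TPM in LPS and 21.4 ± 1.6 TPM in control cells (SD, n = 3 each). ENSRNOT00000098665 averaged 103.8 ± 12.4 TPM in extract, 51.5 ± 8.2 TPM in LPS and 29.5 ± 2.2 TPM in control cells (SD, n = 3 each). The first was the more abundant in extract cells and the less abundant in LPS and control cells. How the authors' counting divided reads that could match both transcripts is not given either, so these levels and shares are estimates. In extract versus control the log2 fold change was 2.46 ± 0.12 for the first (limma adjusted p = 2.72e-06) and 1.78 ± 0.13 for the second (limma adjusted p = 1.89e-05). Of the 6 transcripts of the 5 genes, 5 were called in LPS versus control, where 23% of the 19383 transcripts tested were, 6 in extract versus LPS (background 39.1%) and 5 in extract versus control (background 32%).

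**Figure D4:**
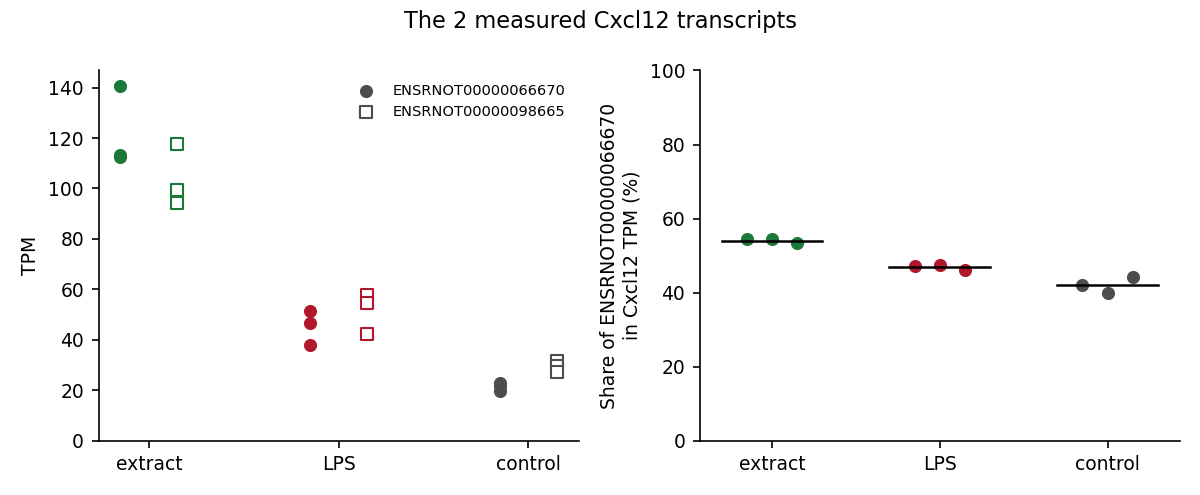
TPM of the Cxcl12 transcripts ENSRNOT00000066670 (filled circles) and ENSRNOT00000098665 (open squares) in each library on the left, and the share of ENSRNOT00000066670 in the gene's TPM, with group means as lines, on the right. The share averages 54.0% in extract, 46.8% in LPS and 42.0% in control cells.

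Set side by side, the genes changed places between the groups. In extract cells the order from high to low was Cxcl1, Cxcl12, Cxcl10, Cxcl2 and Cxcl11, with no overlap between neighbours. In LPS cells it was Cxcl1, Cxcl10, Cxcl12, Cxcl2 and Cxcl11, where Cxcl12 (80.2 to 109.1 TPM) and Cxcl2 (73.4 to 96.0 TPM) overlapped. In control cells it was Cxcl10, Cxcl1, Cxcl12, Cxcl11 and Cxcl2, with no overlap between neighbours.

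The summed TPM of the 5 genes was 1305 ± 104 in extract, 4331 ± 332 in LPS and 901 ± 71 in control cells (SD, n = 3 each). Cxcl1 made up 78.9% ± 1.8 of that sum in extract cells, 90.7% ± 0.34 in LPS cells and 12.0% ± 0.41 in control cells (SD, n = 3 each). Cxcl10 made up 3.43% ± 0.42, 4.91% ± 0.48 and 81.5% ± 0.39 in extract, LPS and control cells (SD, n = 3 each). Among these 5 genes the most abundant was therefore Cxcl1 in all 6 extract and LPS libraries and Cxcl10 in all 3 control libraries. Cxcl12 took 17.3% ± 1.5 in extract cells, against 2.26% ± 0.50 in LPS and 5.68% ± 0.68 in control cells (SD, n = 3 each).

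**Figure D5:**
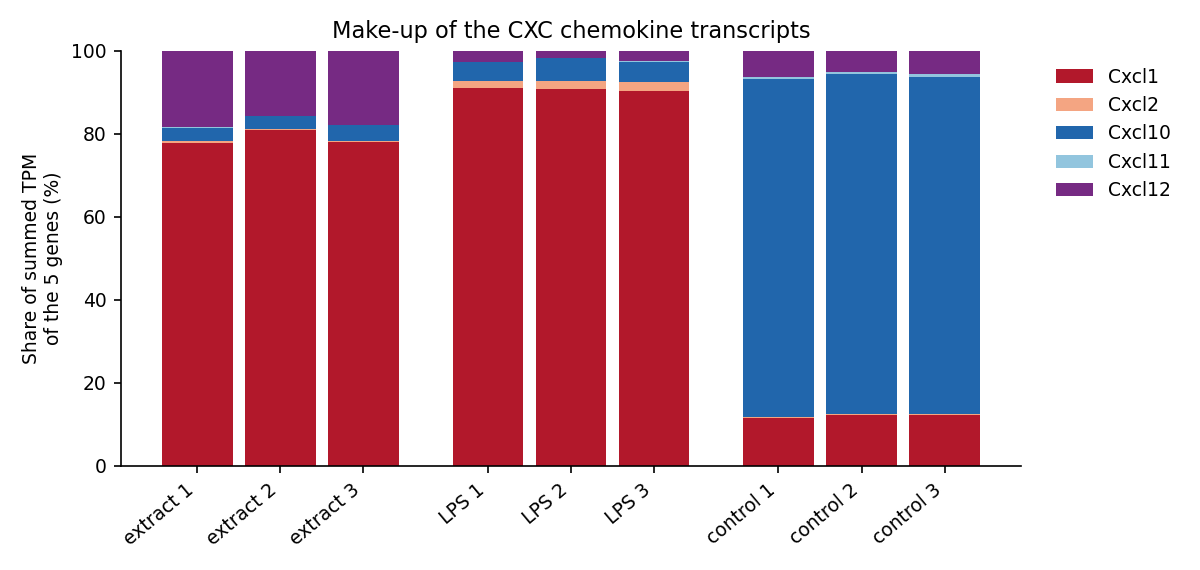
Share of each gene in the summed TPM of the 5 CXC chemokines, in percent, 1 stacked bar per library. Cxcl1 fills 77.9% to 91.0% of the bar in extract and LPS libraries, and Cxcl10 fills 81.2% to 81.9% in control libraries.

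Within the LPS group the libraries differed in a common order. LPS replicate 2 had the highest and LPS replicate 1 the lowest TPM of Cxcl1, Cxcl2, Cxcl10 and Cxcl11, while Cxcl12 was lowest in replicate 2 and highest in replicate 1. For Cxcl1, LPS replicates 1 and 3 lay close together (3747 and 3763 TPM). Their median-of-ratios scaling factors were 0.970 and 0.986, and division by these puts replicate 3 below replicate 1. The order of these libraries for Cxcl1 thus depends on the scaling, and it was not examined under quantile normalization. The coefficient of variation in LPS cells was 7.66% for Cxcl1, 13.3% for Cxcl2, 17.1% for Cxcl10, 33.0% for Cxcl11 and 15.4% for Cxcl12. In extract cells it ranged from 4.0% for Cxcl2 to 12.6% for Cxcl12, and in control cells from 6.12% for Cxcl12 to 14.6% for Cxcl2.

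Likeness of pattern was measured as the root mean square difference between 2 genes' log2(TPM + 1) values over the 9 libraries, each gene centred on its own mean, so that 0 means parallel profiles. Among the members Cxcl10 and Cxcl11 were nearest at 1.07, Cxcl1 and Cxcl2 stood 1.28 apart, and Cxcl1 and Cxcl10 were farthest at 3.35. The measure depends on the size of changes as well as their direction, and the pseudocount flattens Cxcl11 at its low TPM. In LPS versus control Cxcl10 fell (-1.79) and Cxcl11 was not called (0.26), while Cxcl1 (5.17) and Cxcl2 (4.47) both rose. Each member had a nearer gene outside these 5, at 0.25 for Cxcl1, 0.42 for Cxcl2, 0.25 for Cxcl10, 0.21 for Cxcl11 and 0.17 for Cxcl12. Those genes were the nearest of 12192 compared, so a nearer one than the few other members was likely beforehand. The gene nearest to Cxcl12, ENSRNOG00000028624, averaged 31.0 ± 1.4 TPM in extract, 11.9 ± 1.2 TPM in LPS and 7.19 ± 1.1 TPM in control cells (SD, n = 3 each). The next, ENSRNOG00000052498 at 0.20, averaged 24.1 ± 2.5, 8.01 ± 0.30 and 5.41 ± 0.24 TPM in extract, LPS and control cells (SD, n = 3 each). The files do not pair these identifiers with names.

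Across the whole table each library listed 15479 to 15837 genes above 0 TPM. The lowest Pearson's r across genes within a group was 0.977 and the highest between groups 0.969, given as a description. Only the 5 chemokine identifiers carry names here, so the other CXC chemokines were not analysed. Nor were mesangial markers, markers of other glomerular cells, the receptors Cxcr2, Cxcr3 and Cxcr4 and the NF-kB and interferon genes. The part of all these genes in the values was not tested.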

How the data were processed

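The authors deposited TPM for 30560 genes and 54991 transcripts in 9 libraries, rounded to 2 decimals. Among the tools, per the submitters' processing notes, were RSEM 1.3.3, HISAT2 2.1.0 and fastp; their roles, the build, annotation and strandedness were not given in these sources. TPM holds no depth, so read depth is unknown, no counting interval was given and precision rests on the number of libraries. TPM is also relative: a rise of abundant genes lowers all others.

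Columns were matched to libraries through the first word of each title. The tables carry Ensembl identifiers without names, and 0 matched the RefSeq table of GRCr8 (47357 genes). The 5 members' names were given with their identifiers, and all 5 symbols were found in RefSeq for promoter sequences and gene order; gene lists and cell markers were not analysed. Members, lists and tests were chosen with earlier results of these data known. The named genes were the 5 members and, by a rule on pattern likeness, the 2 identifiers nearest to a member.

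Values were taken as log2(TPM + 1) where the mean over libraries reached 1 TPM (12192 genes, 19383 transcripts). Group means were fitted to the 9 libraries together (limma 3.58.1, R 4.3.3, two-sided, moderated, mean-variance trend, 6 residual degrees of freedom before moderation). The fit was tested on simulated data. Transcripts were linked to a member where consecutive rows summed to its TPM within 0.006 TPM per rounded value. The alternatives changed the pseudocount (0.1 or 5) or the filter (none or 5 TPM), or used median-of-ratios scaling, quantile normalization, a replicate block, fits of 2 groups, no trend and leaving out each library.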

Additional observations from a re-analysis of the deposited data

How the results depend on the processing

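Under 18 alternatives the 15 log2 fold changes of the 5 genes gave 267 values, of which 262 kept their direction and their side of the threshold, 5 newly passed it and 0 lost a call or turned direction. The exceptions were Cxcl11 in LPS versus control without LPS replicate 1 (0.52, limma adjusted p = 0.00667; range over its alternatives 0.00667 to 0.758) and Cxcl2 in extract versus control (range 0.0243 to 0.256). Cxcl2 passed with a pseudocount of 0.1 (limma adjusted p = 0.0425), with quantile normalization (0.0243), without LPS replicate 1 (0.0384) and without control replicate 2 (0.0314). Without LPS replicate 1 the difference stayed at 0.25 and its SE was 0.085 against 0.10, since the 3 groups share 1 estimate of the spread. Control replicate 2 held the most Cxcl2 of the control libraries (3.35 against 2.51 and 2.83 TPM), and leaving it out raised the difference to 0.33. A pseudocount of 0.1, which flattens low levels less than 1 does, raised it to 0.32. For quantile normalization the cause was not tested. Cxcl11 was not tested with a filter of 5 TPM, its mean being lower. The fold change itself is fixed under a changed filter, a replicate block, fits of 2 groups, no trend or omission of an uncompared library. Values from those settings could not turn direction and bear on the threshold alone. All 54 transcript values kept their call, although members with 1 transcript repeat the gene's TPM. With median-of-ratios scaling, an alternative for levels chosen after seeing the data, all 15 group means stayed within 1 SD. With the replicate block 4, 5 and 4 genes were called in LPS versus control, extract versus LPS and extract versus control, as without it, and the Cxcl2 difference between extract and control had a limma adjusted p of 0.0508. Same-numbered libraries of different groups had deviations that correlated between -0.055 and 0.095, others between -0.11 and 0.089. Of the 9 libraries 6 correlated best with their own number, which does not settle whether the numbers pair the libraries. The main fit did not pair them. Without read depth, the precision of Cxcl11 and of Cxcl2 outside LPS cells rests on the libraries alone, with the spread pooled over the 3 groups. For Cxcl11 in extract versus control the SE was 0.198 in the main fit and 0.105 in the fit of the 2 groups compared.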
